A study of Mus musculus with 2 samples.

Results

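Neuronal cytoskeleton and neurofilament genes were described as a set of 10 genes, chosen by name out of the 27998 genes listed for both libraries: *Stmn2*, *Stmn3*, *Tubb3*, *Tubb2b*, *Nefl*, *Nefm*, *Uchl1*, *Gap43*, *Map1b* and *Dcx*. These genes were chosen with earlier results of these data known. Their unique molecular identifier (UMI) counts were measured by single-cell RNA-seq (10x Genomics Chromium) of small cell lung cancer (SCLC) cells from mouse lung. One tumor was taken from each of 2 mice, TKO1 and TKO2, and each tumor gave 1 library. Both mice were labeled *Rb*-/-, *Trp53*-/- and *Rbl2*-/- (TKO), on a mixed background from the strains C57BL/6, 129/SVJ and 129/SvOla. The authors describe these genes as floxed and deleted conditionally in lung cells by Cre, not as lost throughout the mouse. Both mice also carried a Rosa26 reporter given as membrane-Tomato or membrane-GFP. The label of TKO1 adds characters to that allele that are not explained. Tumors were induced with Adeno-CMV-cre, an adenovirus in which the CMV promoter drives Cre in whichever cells it infects, so the cell of origin is not fixed by the model. Cells were harvested 7 months later, at an age of 8 to 9 months, and live cells were sorted. Genotype and treatment were thus shared, and the tumor, the mouse and the library cannot be told apart in any difference between TKO1 and TKO2.

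SCLC is a neuroendocrine tumor, and its cells express many genes that neurons use to build axons. Microtubules are polymers of alpha- and beta-tubulin that give an axon its tracks. Stathmins bind tubulin dimers and favor disassembly, whereas microtubule-associated proteins such as Map1b and doublecortin stabilize the polymer. Neurofilaments are intermediate filaments assembled from light, medium and heavy chains that set axon caliber, Gap43 is a membrane protein of the growth cone, and Uchl1 (PGP9.5) is an abundant neuronal deubiquitinase long used as a stain for neuroendocrine lung tumors.

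Barcodes with more than 500 detected genes were retained, which left 3193 of 4514 in TKO1 and 3568 of 3816 in TKO2, with medians of 1223 and 1960 UMIs per cell. The retained cells held 4566658 and 8105281 UMIs. The libraries shared 11 of the retained barcode sequences. Counts of the deleted genes cannot show which exons were present and so do not check the deletions. *Rb1* had 74.9 and 15.9 counts per 1000000 UMIs of the retained cells (CPM) in TKO1 and TKO2, *Trp53* 48.2 and 62.1 CPM, and *Rbl2* 8.98 and 1.73 CPM. Clustering each tumor separately gave 8 clusters in TKO1 and 9 in TKO2 with at least 3 neuroendocrine markers and no club cell markers (93.5% and 94.7% of cells), plus a macrophage-like cluster (98 and 123 cells) and a cluster with club cell markers (108 and 65 cells). Some of the 8 and 9 clusters were led by genes of other programs, so clusters are named by number below. Of 7 markers of peripheral neurons, 4 had no UMI in TKO1 and 3 had none in TKO2, and the Schwann cell factor *Sox10* had none in either tumor.

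The first comparison asked how the 10 genes differed between the tumors. *Stmn2*, *Tubb3*, *Tubb2b*, *Gap43* and *Dcx* were more than 2-fold higher in TKO2, *Uchl1* was higher by less than 2-fold, and the remaining 4 differed by less than 2-fold. Levels are given in CPM with exact Poisson 95% intervals, and ratios have exact conditional binomial 95% intervals. Both cover counting error only. With 1 library per tumor there is no replicate error and no test, and differences of at least 2-fold were counted instead. Because UMI counts also depend on how each transcript is primed and mapped, levels were compared within a gene and not between genes.

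**Figure D1:**
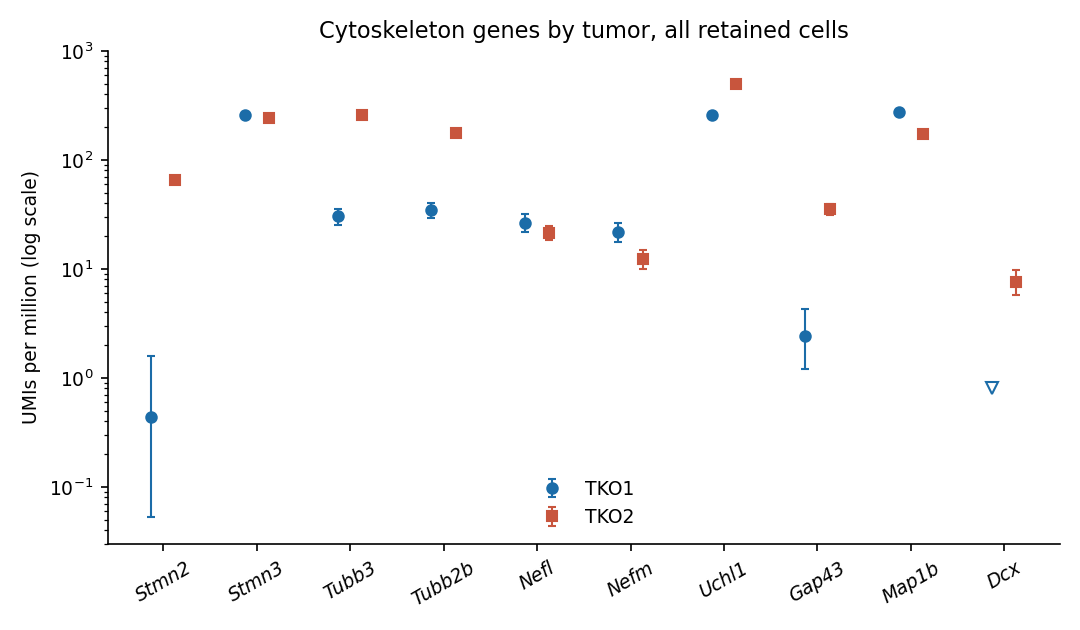
CPM (log scale) of the 10 genes in the retained cells of TKO1 (circles, 3193 cells) and TKO2 (squares, 3568 cells), with exact Poisson 95% intervals for counting error; the open triangle is the upper bound for 0 UMIs. *Stmn2*, *Tubb3*, *Tubb2b*, *Gap43* and *Dcx* lie at least 5.14-fold higher in TKO2, whereas *Stmn3* and *Nefl* lie close together, with an order that depends on the scaling.

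Among the stathmins, *Stmn2* (SCG10, an axonal growth and regeneration factor; chromosome 3, 8509360 to 8561606 of GRCm38) had 2 UMIs in TKO1 (0.438 CPM, 0.0530 to 1.58) and 533 in TKO2 (65.8 CPM, 60.3 to 71.6). The log2 ratio of TKO1 over TKO2 was -7.23 (-10.3 to -5.37). *Stmn3* (SCLIP, its neuronal paralog; chromosome 2, 181306459 to 181314500) was nearly level, at 258 CPM (243 to 273) and 240 CPM (230 to 251). Its log2 ratio of 0.10 (-0.0055 to 0.21) turned to -0.22 when taken relative to the median of all genes. The pair of paralogs thus differed in the size of the tumor contrast, with intervals that do not overlap.

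Both beta-tubulins were lower in TKO1. *Tubb3* (class III beta-tubulin, the neuronal isotype; chromosome 8, 123411424 to 123422015) had 30.2 CPM (25.4 to 35.7) in TKO1 and 256 CPM (245 to 267) in TKO2, a log2 ratio of -3.08 (-3.34 to -2.83), or 8.47-fold. *Tubb2b* (a beta-tubulin of migrating neurons; chromosome 13, 34126748 to 34130466) showed the same order, 34.6 CPM (29.4 to 40.4) in TKO1 and 178 CPM (169 to 187) in TKO2, a log2 ratio of -2.36 (-2.61 to -2.12), or 5.14-fold. Reads of *Tubb2b* can be shared with its near-identical neighbor *Tubb2a*, so its own level is uncertain, and *Tubb2a* was lower in TKO1 as well (16.2 against 62.8 CPM, log2 ratio -1.95).

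The growth-cone and migration genes had few UMIs in TKO1. *Gap43* (chromosome 16, 42248442 to 42340651) had 11 UMIs there (2.41 CPM, 1.20 to 4.31) and 285 in TKO2 (35.2 CPM, 31.2 to 39.5), a log2 ratio of -3.87 (-4.89 to -3.01). *Dcx* (doublecortin, which stabilizes microtubules in migrating neuroblasts; chromosome X, 143855842 to 143933311) had 0 UMIs in TKO1 and 61 in TKO2 (7.53 CPM, 5.76 to 9.67). Taking 3 UMIs as the limit that a count of 0 allows over the tumor, *Dcx* was 11.5-fold lower in TKO1 at that limit. The upper bound of its exact interval, which includes the counting error of TKO2, was a log2 ratio of -3.18.

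The other 4 genes were within 2-fold. *Uchl1* (chromosome 5, 66676091 to 66687234) had 260 CPM (245 to 275) in TKO1 and 492 CPM (477 to 508) in TKO2, a log2 ratio of -0.92 (-1.02 to -0.83). *Map1b* (a large microtubule-associated protein of growing axons; chromosome 13, 99421446 to 99516540) was higher in TKO1, at 274 CPM (259 to 290) against 171 CPM (162 to 180), a log2 ratio of 0.68 (0.57 to 0.79). *Uchl1* was thus higher in TKO2 and *Map1b* in TKO1, also relative to the median of all genes (-1.24 and 0.36).

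Neurofilament light chain *Nefl* (chromosome 14, 68083863 to 68089095, plus strand) had 26.5 CPM (22.0 to 31.7) in TKO1 and 21.3 CPM (18.3 to 24.8) in TKO2, a log2 ratio of 0.31 (-0.04 to 0.66) that became -0.01 relative to the median of all genes and -0.05 with TMM factors. Neurofilament medium chain *Nefm* (68082590 to 68124846, minus strand) had 21.7 CPM (17.6 to 26.4) and 12.3 CPM (10.0 to 15.0), a log2 ratio of 0.81 (0.40 to 1.23). In the GENCODE M21 annotation, all 5.23 kb of *Nefl* lie within the span of *Nefm* on the opposite strand. Whether the authors' counting used strand is not given in the sources used here, so reads of these genes may not be fully told apart. The side on which both chains lay depended on cluster 6 of TKO1, described below. Without its cells the log2 ratios were -1.48 for *Nefl* and -1.44 for *Nefm*.

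All 10 genes had at least 10 UMIs expected in the smaller tumor. Of these 10, 5 were at least 2-fold lower in TKO1 and 0 at least 2-fold higher, whereas among the 11836 genes that met the same minimum 11.1% were at least 2-fold lower and 27.7% at least 2-fold higher. Expected UMIs come from the pooled level, so UMIs in either tumor help a gene to qualify. *Stmn2* and *Dcx*, with 2 and 0 UMIs in TKO1, met the minimum only through TKO2. The 10 genes were also chosen with earlier results of these data known. The count of 5 is therefore a description and no sign of enrichment. The median log2 ratio was -1.64 for the 10 genes and 0.32 for all genes. Relative to the latter the median of the 10 was -1.96 and *Uchl1*, at -1.24, became a sixth gene past 2-fold. Cell type markers also differed between the tumors. The 14 neuroendocrine markers summed to 21316 CPM in TKO1 and 1397 CPM in TKO2 with none at 0, and the 5 club cell markers to 12156 and 940 CPM with *Bpifa1* at 0 in both. The 10 macrophage markers summed to 1137 and 917 CPM with none at 0. Within the clusters with neuroendocrine markers and no club cell markers the median of the 10 was -1.61, with 5 past 2-fold. The part of the neuroendocrine marker level in these ratios was not tested.

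The same order was seen in shares of cells. After each cell was thinned to 1000 UMIs, which kept 2323 cells of TKO1 and 3181 of TKO2 and left out 870 and 387 shallower ones, *Tubb3* was detected in 2.80% of TKO1 cells (exact Clopper-Pearson 95% interval 2.17 to 3.55) and 20.1% of TKO2 cells (18.7 to 21.5). Without thinning the shares were 4.04% and 35.4%. *Stmn3* was detected in 22.3% and 20.2% of thinned cells (27.4% and 35.9% without thinning). *Uchl1* was detected in 21.4% and 36.8% (27.7% and 57.0% without thinning).

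Free RNA in droplet data gives UMIs in cells that do not express a gene, so the macrophage-like cells, which should lack these transcripts, were used as a background. In TKO2 they had a median of 1737 UMIs before thinning, against 2087 for all thinned cells. In these 114 cells *Tubb3* was detected in 4.39%, *Stmn3* and *Uchl1* in 7.89% each, *Tubb2b* in 6.14% and *Map1b* in 3.51%, all below the shares over all cells. *Stmn2* was detected in 4.39% of macrophage-like cells (1.44 to 9.94) and 4.18% of all TKO2 cells, and *Dcx* in 0.877% and 0.566%, so the overall shares of these genes are no higher than this background. Their shares nevertheless differed between clusters beyond counting error for *Stmn2*, as given below. Cluster 1 of TKO2 had less *Stmn2* than the macrophage-like cells, at 5.47 CPM (1.77 to 12.8) against 39.1 CPM (17.9 to 74.2). The macrophage-like level is thus not a floor shared by all cells, and a level near it does not show that a gene is unexpressed. *Nefm* was detected in 0.877% of macrophage-like cells (0.022 to 4.79) and 1.10% of all TKO2 cells, with 13.0 CPM (2.69 to 38.1) and 12.3 CPM. Its TKO2 level, which enters its tumor ratio, was thus not separated from this background. Summed over the 10 genes, the level was 907 CPM (880 to 935) in TKO1 and 1479 CPM (1453 to 1506) in TKO2, with 182 CPM and 517 CPM in the macrophage-like cells and 258 CPM and 530 CPM in the clusters with club cell markers.

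Promoter windows from RefSeq (GRCm38.p6) were found for *Stmn3*, *Tubb3*, *Uchl1*, *Map1b* and *Dcx*, 5 of the 10 genes. Those of *Tubb3*, *Stmn3* and *Map1b* are shown because their genes differ in the tumor contrast: *Tubb3*, 8.47-fold lower in TKO1, and *Stmn3* and *Map1b*, within 2-fold. Each is the 250 bases before the gene's RefSeq start, or for *Tubb3* the 121 of them outside the annotated gene, printed 5′ to 3′ on the gene's own strand. For *Map1b* this start lies upstream of the GENCODE M21 start given above, so the window does not adjoin it. Capitals mark a match to CANNTG, the general E-box read by basic helix-loop-helix factors, whose letters read the same on both strands.
*Stmn3*, minus strand, chr2:181314501-181314750: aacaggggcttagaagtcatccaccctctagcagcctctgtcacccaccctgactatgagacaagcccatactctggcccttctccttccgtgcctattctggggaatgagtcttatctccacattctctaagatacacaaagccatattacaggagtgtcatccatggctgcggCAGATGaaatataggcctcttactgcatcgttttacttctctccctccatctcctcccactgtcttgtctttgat
*Map1b*, minus strand, chr13:99516603-99516852: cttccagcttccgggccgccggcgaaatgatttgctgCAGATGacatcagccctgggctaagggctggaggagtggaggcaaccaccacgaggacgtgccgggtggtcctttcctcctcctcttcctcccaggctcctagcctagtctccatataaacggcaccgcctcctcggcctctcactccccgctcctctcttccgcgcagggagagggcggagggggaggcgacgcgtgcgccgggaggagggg
*Tubb3*, plus strand, chr8:123411303-123411423: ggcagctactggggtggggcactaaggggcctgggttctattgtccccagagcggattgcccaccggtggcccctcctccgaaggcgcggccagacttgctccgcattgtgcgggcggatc
The full 250-base windows of *Stmn3* and *Map1b* held 1 match each, and those of *Tubb3*, *Uchl1* and *Dcx* (the last with 2 windows) held 0. CANNTG occurred in 66.2% of 32536 RefSeq promoter windows of the same length. Its special cases CAGCTG (13.1% of windows) and CACGTG (6.04%) were found in none of the 6 windows of these genes. A match is a description of the letters in the window.

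Genes related to the 10 by function were taken from 9 lists of 58 genes, of which 54 met the minimum. Across the lists 15 were at least 2-fold lower in TKO1 (11.1% of all genes tested were) and 7 at least 2-fold higher (27.7%), with a median log2 ratio of -0.23. The lists were also chosen with earlier results of these data known, so these counts are a description. Of 11 growth-cone genes, 5 were at least 2-fold lower and 0 higher. *Dbn1* (drebrin, an actin-binding protein of spines and growth cones) had 0.876 and 40.5 CPM (log2 ratio -5.53, -7.41 to -4.16). *Fez1*, a kinesin adaptor, had 0.657 and 38.4 CPM (-5.87, -8.15 to -4.31). The collapsin response mediator *Dpysl4* had 3.72 and 61.3 CPM (-4.04), and its relative *Dpysl3* had -2.60. *Basp1*, a membrane partner of Gap43, was past 2-fold with a smaller ratio of -1.23. *Fez1*, *Dbn1* and *Dpysl3* had 3, 4 and 4 UMIs in TKO1 and met the minimum only through TKO2, so the growth-cone count is a description.

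The stathmin *Stmn4* had 2.85 and 91.8 CPM (log2 ratio -5.01), near *Stmn2*, whereas the ubiquitous *Stmn1* was level at 2932 and 2840 CPM (0.05, or -0.28 relative to the median of all genes). Among intermediate filaments, *Ina* (alpha-internexin) had a log2 ratio of -1.71, the heavy chain *Nefh* -0.73 and *Prph* (peripherin) 0.72. The neuronal RNA-binding protein *Elavl2* had -3.29, and its paralogs *Elavl3* and *Elavl4* had -0.50 and -0.49.

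Of 12 microtubule-associated proteins, 4 were at least 2-fold higher in TKO1 and 2 lower, shares near those of all genes (27.7% and 11.1%). *Map1a*, the adult counterpart of *Map1b*, had 26.5 and 3.08 CPM (log2 ratio 3.10, 2.47 to 3.79), and *Mapre3*, *Map7* and *Map6* had 2.86, 1.57 and 1.54. The doublecortin-like kinases *Dclk1* and *Dclk2* were lower in TKO1, at -3.67 and -1.26, on the same side as *Dcx*. Of 5 alpha-tubulins tested, *Tuba8* was at least 2-fold higher in TKO1 (49.5 against 0.494 CPM, log2 ratio 6.65, 5.27 to 8.54) and *Tuba1b* lower (-1.03).

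Within TKO1, the neurofilament genes were concentrated in cluster 6. This cluster of 273 cells (8.49% of retained UMIs) held 73.6% of *Nefl* UMIs, 80.8% of *Nefm* UMIs and 43.7% of *Tubb2b* UMIs. *Nefl* had 230 CPM there (184 to 283) against a median of 2.66 CPM over the 8 clusters with neuroendocrine markers. *Nefm* had 206 CPM (164 to 257) against a median of 4.32 CPM. *Tubb2b* had 178 CPM (138 to 225) against a median of 20.1 CPM. The 10 genes and *Mycl* were left out of the variable genes used for clustering, but other genes of the same cells were used, so these levels are a description with no test.

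**Figure D2:**
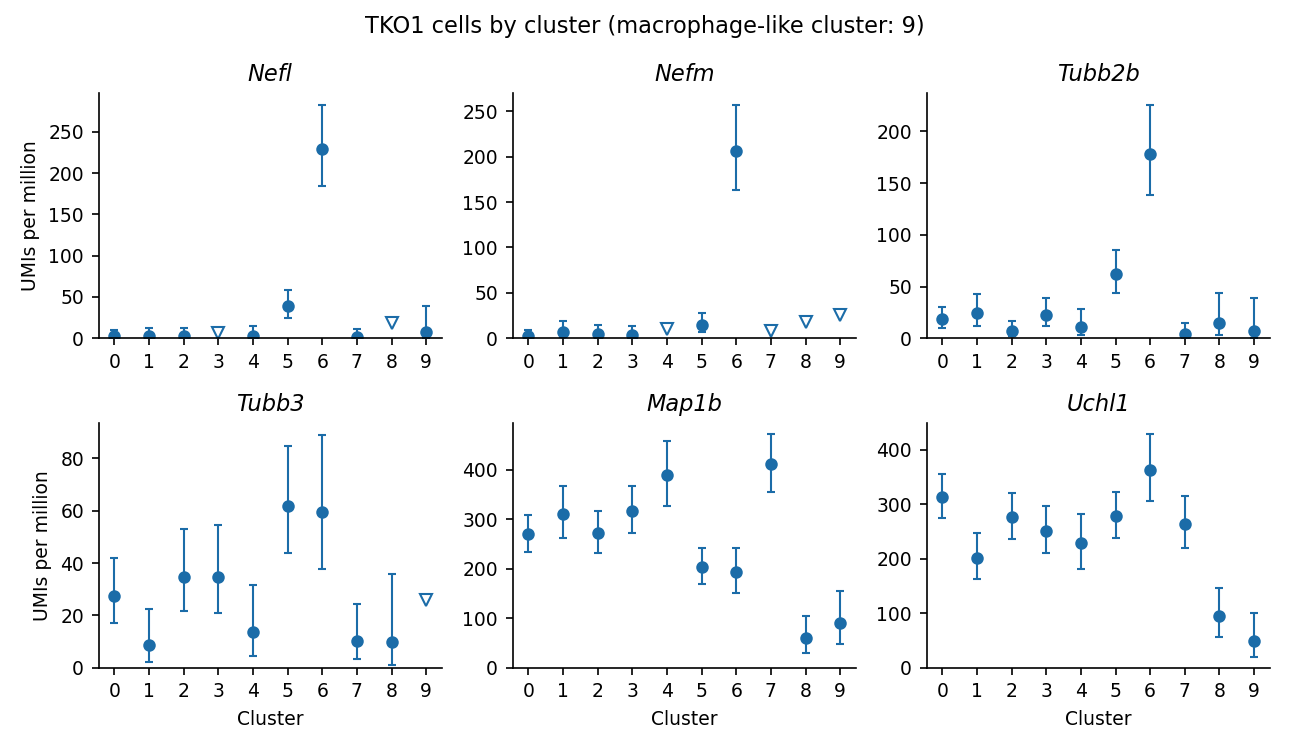
CPM of 6 genes in the 10 clusters of TKO1, with exact Poisson 95% intervals for counting error; open triangles are upper bounds for 0 UMIs. *Nefl*, *Nefm* and *Tubb2b* peak in cluster 6 at 230, 206 and 178 CPM, and *Map1b* is highest in cluster 7 at 411 CPM.

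Cluster 6 was led by *Neurog3*, *Nefm*, *Nefl*, *Nppb* and *Iapp*, among 10 leading genes that also included *Mycl*. It had 1176 CPM of *Mycl*, 52.5% of all *Mycl* UMIs of the tumor, and 18.1 CPM of *Mycn*. Cluster 5, led by the mitotic genes *Ube2c*, *Plk1* and *Ccnb2*, was next for *Nefl* (39.0 CPM) and for *Mycl* (410 CPM), and had the highest *Tubb3* (61.8 CPM). *Map1b* ran the other way, at 193 CPM in cluster 6 and 203 CPM in cluster 5 against 270 to 411 CPM in the other 6. *Stmn3* and *Uchl1* varied less, between 209 and 332 CPM for the former and between 202 and 364 CPM for the latter.

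The second comparison asked how the 10 genes stood in TKO1 cells that express *Mycl* (L-Myc, a MYC family transcription factor amplified in some SCLC) most strongly. *Mycl* (chromosome 4, 122995652 to 123002485) reached 3 or more UMIs in 87 of 3193 TKO1 cells, with a highest count of 23, and in 3 of 3568 TKO2 cells, with a highest count of 3. The split was therefore made in TKO1 only. The 87 cells came from cluster 6 (57 cells), cluster 5 (28 cells) and clusters 0 and 2 (1 cell each). They were deeper than the other 3106 cells, with medians of 1979 and 1214.5 UMIs, which bears on any threshold of UMIs.

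*Nefl* differed most. It had 271 CPM (201 to 358) in the *Mycl*-high cells, from 50 UMIs, and 16.2 CPM (12.7 to 20.4) in the other cells, a log2 ratio of 4.07 (3.51 to 4.61), or 16.7-fold. After thinning to 1000 UMIs it was detected in 21.8% of 78 *Mycl*-high cells (13.2 to 32.6) and in 1.34% of 2245 others (0.90 to 1.90), and without thinning in 35.6% and 1.71%. The 1.34% is close to the share in the macrophage-like cells of TKO1, 1.22% of 82 (0.031 to 6.61), whose median was 1433 UMIs before thinning. Of the 47 thinned TKO1 cells with a *Nefl* UMI, 53.2% also had a *Mycl* UMI, against 8.57% of the cells without *Nefl*, and of the 220 cells with a *Mycl* UMI 11.4% had *Nefl*.

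*Nefm* had 86.8 CPM (49.6 to 141) and 18.9 CPM (15.1 to 23.5), a log2 ratio of 2.20 (1.32 to 2.98) that was 1.04 (-1.29 to 2.69) after thinning and 1.21 (-0.45 to 2.48) with a threshold of 5 *Mycl* UMIs. *Tubb3* had 114 CPM (70.5 to 174) and 26.7 CPM (22.1 to 32.0), a log2 ratio of 2.09 (1.35 to 2.77). *Tubb2b* had 109 CPM (66.3 to 168) and 31.5 CPM (26.5 to 37.2), a log2 ratio of 1.79 (1.03 to 2.47). These 3 genes were higher in the *Mycl*-high cells by less than *Nefl*, with 16 to 21 UMIs each behind the value. *Uchl1* had 353 CPM (272 to 450) and 256 CPM (241 to 271), a log2 ratio of 0.46 (0.08 to 0.82), and *Stmn3* had 250 CPM (183 to 333) and 258 CPM (243 to 274), a log2 ratio of -0.05 (-0.51 to 0.38).

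*Map1b* was the only one of the 10 that was at least 2-fold lower, at 109 CPM (66.3 to 168) against 281 CPM (265 to 297), a log2 ratio of -1.37 (-2.09 to -0.74). *Stmn2* and *Gap43* had 0 UMIs in the 87 cells and 2 and 11 in the others, and *Dcx* had none in either, so a difference in these genes was not detectable at this depth.

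The count of genes past 2-fold depended on the minimum. With at least 10 UMIs expected in the smaller group, only *Stmn3*, *Uchl1* and *Map1b* qualified, of which 0 were at least 2-fold higher (4.48% of 3306 genes were) and 1 at least 2-fold lower (16.2%). With at least 3 expected UMIs, a minimum added after seeing the data, 7 qualified, of which 4 were at least 2-fold higher (5.94% of 7202 genes were) and 1 at least 2-fold lower (20.1%). Expected UMIs come from the pooled level, so UMIs in the *Mycl*-high cells help a gene to qualify. *Nefl*, with 50 UMIs there and 71 in the other cells, had 4.88 expected. At the level of the other cells alone it would fall just under 3. The count of 4 is therefore a description and no sign of enrichment. The median log2 ratio of all genes was -0.15 under the first minimum and -0.22 under the second.

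**Figure D3:**
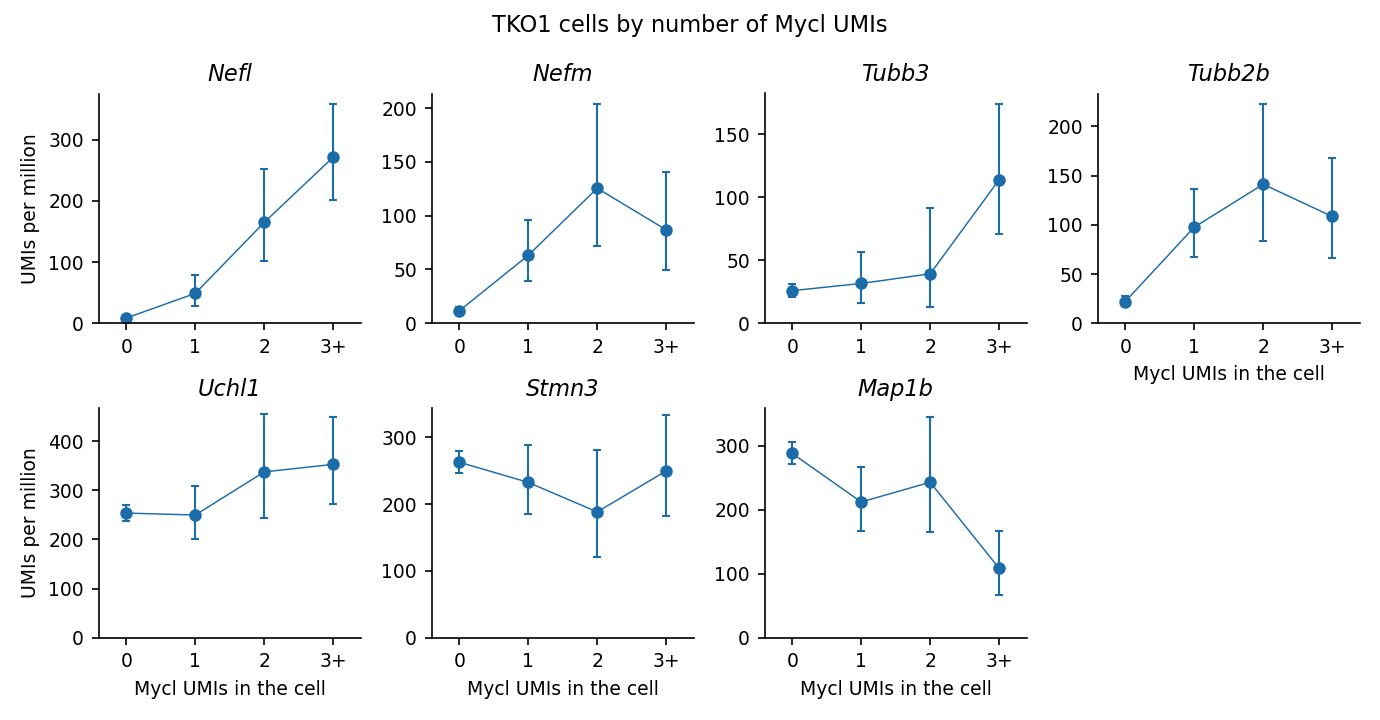
CPM of 7 genes in TKO1 cells with 0, 1, 2 and 3 or more *Mycl* UMIs (2828, 212, 66 and 87 cells), with exact Poisson 95% intervals for counting error. *Nefl* climbs at each step from 8.45 to 271 CPM, and *Nefm* and *Tubb2b* peak at 2 UMIs. For these genes the intervals at 2 and at 3 or more overlap. *Tubb3* differs mainly at 3 or more, and *Map1b* is lowest there.

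The levels did not follow *Mycl* in the same way. Over cells with 0, 1, 2 and 3 or more *Mycl* UMIs, *Nefl* had 8.45, 48.8, 165 and 271 CPM. Its intervals at 2 (102 to 252) and at 3 or more (201 to 358) overlapped. *Nefm* had 11.5, 63.1, 126 and 86.8 CPM, and *Tubb2b* had 22.0, 97.6, 141 and 109 CPM, with intervals of the last pair of steps that overlap. *Tubb3* had 25.9, 31.6, 39.2 and 114 CPM, so that only the last step stood apart from the cells with none. *Map1b* had 288, 212, 243 and 109 CPM.

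Because 57 of the 87 cells lay in cluster 6, the comparison was repeated within it against its other 216 cells, as a description added after seeing the data. *Nefl* remained higher, at 368 CPM (263 to 502) against 176 CPM (130 to 232), and *Tubb3* had 111 CPM (57.1 to 193) against 39.4 CPM (19.7 to 70.5). *Nefm* and *Tubb2b* turned, with 120 CPM (63.7 to 205) against 240 CPM (186 to 305) and 101 CPM (50.6 to 181) against 208 CPM (158 to 269). The log2 ratios were 1.07 (0.43 to 1.70) for *Nefl* and 1.49 (0.18 to 2.81) for *Tubb3*. *Nefm* was 2.01-fold lower (log2 interval -1.99 to -0.13) and *Tubb2b* 2.05-fold lower (-2.12 to -0.09) in the *Mycl*-high cells of this cluster, against the direction over the whole tumor.

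In cluster 5 the 28 *Mycl*-high cells had 137 CPM of *Nefl* (65.6 to 252) against 25.8 CPM (14.1 to 43.4) in its other 299 cells, a log2 ratio of 2.40 (1.07 to 3.68). *Nefm* and *Tubb2b* had log2 ratios of 1.89 (-0.74 to 4.12) and 0.98 (-0.35 to 2.14) in this cluster, with intervals that hold 0 and values opposite in sign to those of cluster 6. *Map1b* was lower in cluster 5, at 68.4 CPM (22.2 to 160) against 221 CPM (184 to 265), and had 138 CPM (77.3 to 228) against 215 CPM (164 to 277) in cluster 6, a log2 ratio of -0.64 (-1.56 to 0.20). Over the other settings tried, of which 2 rescale all genes alike and 1 cannot change the ratio of a single gene, the log2 ratio was between 3.50 and 4.62 for *Nefl* and between -2.11 and -0.79 for *Map1b*.

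Other features moved with the *Mycl* split. An *Mki67* or *Top2a* UMI, both genes of proliferating cells, was found in 35.6% of *Mycl*-high and 13.4% of other cells. These shares are without thinning, and the *Mycl*-high cells were deeper, which raises their share. In CPM the gap was smaller, at 92.3 and 77.4 for *Mki67* and 293 and 157 for *Top2a*. The 14 neuroendocrine markers summed to 5231 and 21993 CPM, the 10 macrophage markers to 16.3 and 1184 CPM, and the 5 club cell markers to 157 and 12660 CPM. Without the cells holding an *Mki67* or *Top2a* UMI the log2 ratio of *Nefl* was 4.55, and within the clusters with neuroendocrine markers it was 3.97. Of the 58 related genes 21 could be compared at 10 expected UMIs, and 0 were at least 2-fold higher (4.48% of all genes were) and 2 lower (16.2%): the axonal motor *Kif1a* (16.3 against 71.4 CPM) and the RNA-binding protein *Elavl4* (54.3 against 138 CPM). Related genes under this minimum were not counted, and some of their intervals excluded 0 on either side. *Elavl2* was higher (log2 ratio 3.18, 2.48 to 3.83), as were *Nefh* (1.23, 0.23 to 2.08) and *Prph* (1.04, 0.10 to 1.86). *Mapre3* was lower (-2.94, -8.26 to -0.45), and *Tuba8* and *Vim* had 0 UMIs in the *Mycl*-high cells against 226 and 94 in the others.

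The third comparison asked how the genes varied among TKO2 cells. *Stmn2* had the widest spread. In the 3181 cells thinned to 1000 UMIs it had a Fano factor (variance over mean of the UMIs per cell) of 1.83, against a median of 1.11 over 2982 genes that averaged 0.05 UMIs or more, and the other 5 of the 10 genes over this mean had 1.13 to 1.22. *Stmn2* was at 0 UMIs in 95.8% of cells, and 1.23% of cells had 2 or more.

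Clusters of TKO2 divided by the same gene. *Stmn2* had 57.2 to 221 CPM in clusters 0, 3, 4 and 7 and 5.47 to 11.0 CPM in clusters 1, 2, 5, 6 and 8. After thinning it was detected in 15.3% of cluster 7 cells (11.3 to 20.1) and 0.456% of cluster 1 cells (0.055 to 1.64), a difference beyond counting error at equal depth. *Gap43* followed, with 27.7, 50.3, 48.0 and 128 CPM in clusters 0, 3, 4 and 7 and 3.28 to 19.6 CPM in the other 5. *Dcx* had 8.87 to 27.9 CPM in the former and 0 to 2.53 CPM in the latter. In the macrophage-like cells *Stmn2* had 39.1 CPM (17.9 to 74.2), *Gap43* 8.68 CPM (1.05 to 31.4) and *Dcx* 13.0 CPM (2.69 to 38.1). *Stmn2* in cluster 4, *Gap43* in cluster 0 and *Dcx* in all 4 clusters were thus not separated from this background by their intervals. For *Stmn2* cluster 1 lay under it (5.47 CPM, 1.77 to 12.8), so this background is not a floor shared by all cells. *Map1b* showed the split with a smaller range, from 187 to 256 CPM in clusters 0, 3, 4 and 7 and from 106 to 167 CPM in the other 5. The intervals of *Gap43* in clusters 0 and 4 and of *Map1b* in clusters 0, 3 and 4 overlapped that of cluster 8. That of *Gap43* in cluster 0 (18.3 to 40.3) also overlapped those of clusters 2, 5 and 6.

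**Figure D4:**
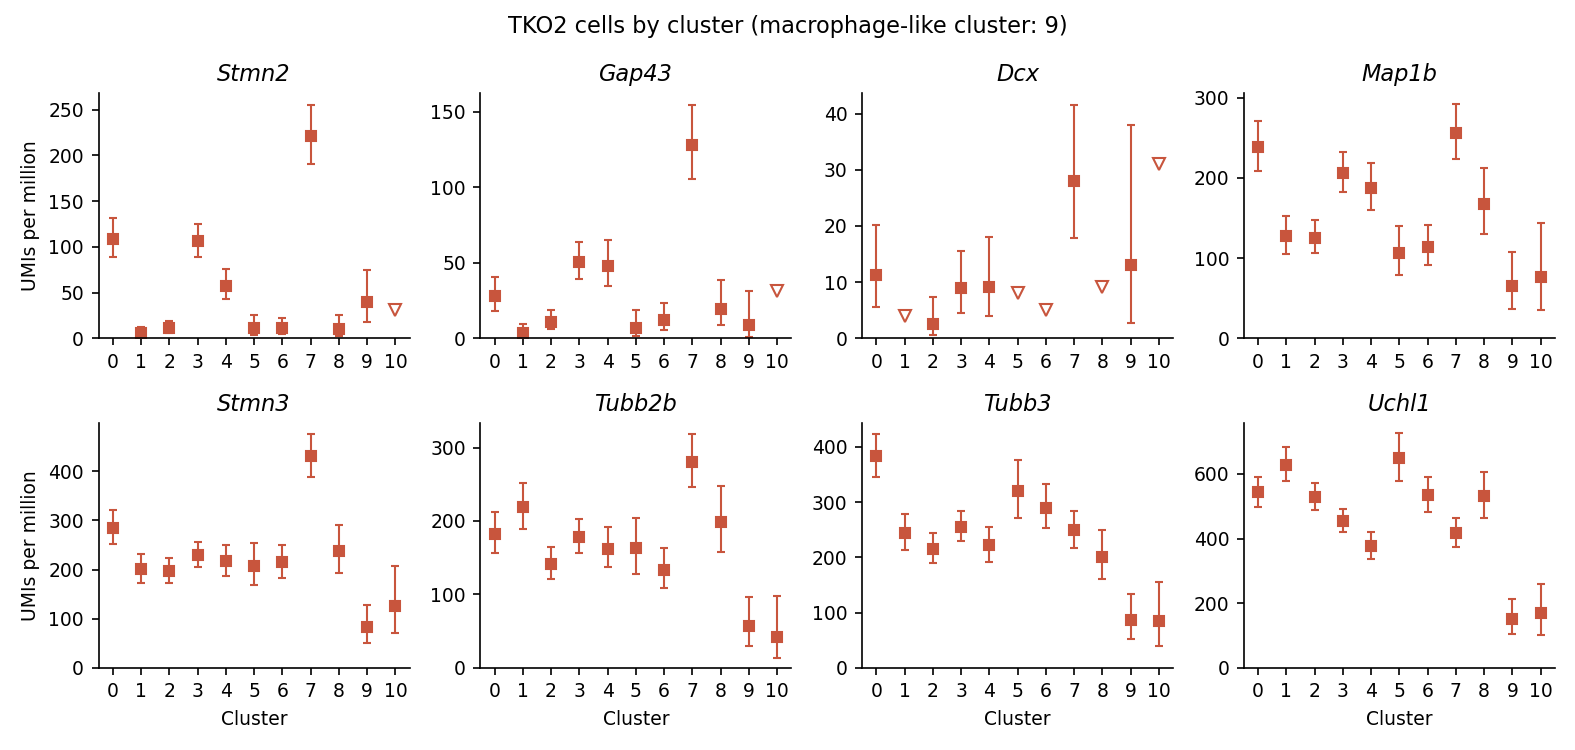
CPM of 8 genes in the 11 clusters of TKO2, with exact Poisson 95% intervals for counting error; open triangles are upper bounds for 0 UMIs. *Stmn2*, *Gap43* and *Map1b* are higher in clusters 0, 3, 4 and 7 than in clusters 1, 2, 5, 6 and 8, with the top level in cluster 7 (221, 128 and 256 CPM), whereas *Uchl1* is highest in cluster 5 (648 CPM). Some intervals of *Gap43* and *Map1b* overlap across this divide, and those of *Stmn2* do not.

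Cluster 7, with 305 cells led by *Spp1*, *Meg3* and *Vtn* and by several predicted genes, had the highest CPM among the 9 clusters for 8 of the 10 genes. The share of all genes that were highest in cluster 7 was not counted, so whether this is particular to the 10 genes was not tested. The interval of cluster 7 was apart from those of all the others only for *Stmn2*, *Stmn3* and *Gap43*. After thinning, *Nefl* was detected in 1.78% of its cells and 2.56% of cluster 8 cells, and *Nefm* in 1.42% and, in cluster 5, 2.02%. It held 35.6% of *Stmn2* UMIs, 38.6% of *Gap43* UMIs and 39.3% of *Dcx* UMIs in 10.6% of the retained UMIs. *Stmn3* had 431 CPM there (388 to 477) against a median of 217 CPM, and *Tubb2b* 280 CPM (246 to 318) against 178 CPM. *Nefl* (40.7 CPM, 28.4 to 56.6) and *Nefm* (30.3 CPM, 19.8 to 44.3) were also highest there in CPM, well below their level in cluster 6 of TKO1. The interval of *Nefm* overlapped that of the macrophage-like cells (13.0 CPM, 2.69 to 38.1). The exceptions were *Tubb3*, highest in cluster 0 (383 CPM), and *Uchl1*, which was highest in cluster 5 (648 CPM) and had 417 CPM in cluster 7.

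Of the clusters low in *Stmn2*, cluster 1 was led by genes that included the keratins *Krt8* and *Krt18* and the claudin *Cldn6*, cluster 2 by *Epcam* and *Cldn7*, cluster 5 by genes that included *Rab25*, cluster 6 by *Elf3*, and cluster 8 by genes of mitosis that included *Cenpf*, *Aspm* and *Mki67*. *Mycn* ranged from 1229 to 3900 CPM over the 9 clusters and in part followed this divide. The clusters high in *Stmn2* had 2699 to 3900 CPM of *Mycn*. Clusters 1, 5 and 8 had less, at 1229, 1658 and 1655 CPM, with intervals below those of all clusters high in *Stmn2*. Clusters 2 and 6, at 3085 and 2795 CPM, lay within the range of the clusters high in *Stmn2*. *Mycl* was low throughout, from 22.1 to 50.3 CPM.

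Between cells the genes were only weakly related. Over the 15 pairs of the 6 genes over the same mean (*Stmn2*, *Stmn3*, *Tubb3*, *Tubb2b*, *Uchl1* and *Map1b*) the median Pearson correlation across 3181 thinned cells of the 1 library was 0.036, against -0.00045 over all pairs of the 2982 genes. The highest were *Stmn2* with *Stmn3* (0.13) and with *Tubb2b* (0.090), *Tubb3* with *Uchl1* (0.079) and *Stmn2* with *Map1b* (0.070). Counts of 0 to 6 UMIs per cell limit all of these, and the values are a description. *Stmn2* and *Uchl1*, whose highest clusters differed, had 0.0054.

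Cells were then ordered, for each gene, by the UMIs of the other 9 genes, and the top and bottom 25% (795 cells each, cells with the same count taken in a seeded random order) were compared. *Stmn2* had 114 CPM (92.2 to 141) in the top and 23.9 CPM (14.4 to 37.3) in the bottom 25%, a log2 ratio of 2.26 (1.54 to 3.06), or 4.79-fold. *Tubb3* had 284 and 182 CPM (0.64, 0.33 to 0.95), *Tubb2b* 201 and 137 CPM (0.55, 0.19 to 0.92), and *Stmn3* 283 and 204 CPM (0.47, 0.18 to 0.77). *Map1b* and *Uchl1* had 0.43 (0.07 to 0.80) and 0.29 (0.08 to 0.49), and the intervals of *Gap43*, *Nefl*, *Nefm* and *Dcx* included 0.

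**Figure D5:**
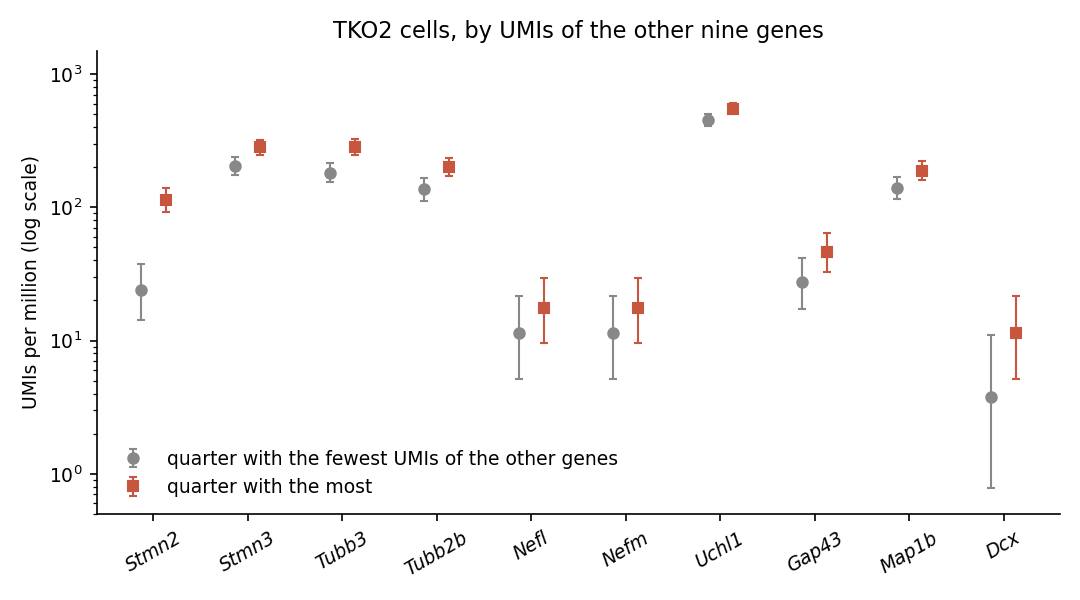
CPM (log scale) of each gene in the 25% of TKO2 cells with the fewest (circles) and the most (squares) UMIs of the other 9 genes, 795 thinned cells each, with exact Poisson 95% intervals for counting error. *Stmn2* stands apart, at 23.9 and 114 CPM, and the other genes differ by less than 2-fold or, for *Dcx*, by 3 UMIs against 9.

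Of the 9 genes with at least 10 UMIs expected per group, 1 was at least 2-fold higher in the top 25% and 0 lower, against 2.72% and 5.04% of 7018 genes, for which the order was by all 10 genes or, for the 10 themselves, by the other 9. The median over the 9 was 0.64. The bottom 25% also held cells of other types. Within the clusters with neuroendocrine markers the log2 ratio was 2.19 for *Stmn2* and 0.07 for *Uchl1*, and without cluster 7 *Stmn2* had 2.65. In cells thinned to 500 UMIs *Stmn2* had 0.84 (0.14 to 1.56) and was no longer past 2-fold.

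The genes most like the 10 across TKO2 cells, by Pearson correlation with their summed UMIs among 2976 other genes, were *Tuba1a* (0.27), *Igfbpl1* (0.13), *Prdx2* (0.12), *Stmn1* (0.12), *Rtn1* (0.11), *Mllt11* (0.11), *Tmsb10* (0.11), *Marcksl1* (0.11), *Serf1* (0.10) and *Prmt1* (0.099). *Tuba1a*, the main alpha-tubulin of developing neurons, also came first in TKO1, at 0.11 among 3502 genes, and those after it included *Ppie* (0.096) and *Mzt1* (0.085). In TKO1, where 3 of the 10 genes passed the mean, the median over 3 pairs was 0.020.

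TKO2 cells were also split by *Mycn* and by *Neurod1*. In the 1728 thinned cells with 2 or more *Mycn* UMIs, the median, *Gap43* had 39.4 CPM against 24.1 CPM in the other 1453 cells (log2 ratio 0.71, 0.10 to 1.34). *Map1b* had 181 against 138 CPM (0.38, 0.12 to 0.65) and *Tubb3* 263 against 222 CPM (0.24, 0.03 to 0.45). The intervals of the remaining genes held 0, with *Stmn3* and *Uchl1* at -0.06 and 0.07 and *Nefl* at -0.81 (-1.79 to 0.14). *Neurod1*, a neurogenic transcription factor, was detected in 20 thinned cells, in which none of the 10 genes had 10 expected UMIs, so no ratio was counted. In these *Tubb3* had 700 CPM (383 to 1174) from 14 UMIs against 241 CPM (225 to 259), a log2 ratio of 1.54 (0.66 to 2.29). *Stmn2* had 300 CPM (110 to 653) from 6 UMIs against 59.2 CPM, and *Gap43* had 200 CPM (54.5 to 512) from 4 UMIs against 31.3 CPM. The intervals of the other 7 genes held 0.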

How the data were processed

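Sorted live cells of 1 tumor from each of 2 mice were profiled by single-cell RNA-seq. The authors deposited UMI counts per gene and barcode, not normalized. Their processing notes name Cell Ranger, Seurat and mm10, without versions. Gene positions came from GENCODE M21 (GRCm38), to which 27645 of 27998 identifiers matched, and promoters from RefSeq.

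Barcodes with more than 500 detected genes were kept. UMIs were summed over cells and divided by the group's total. Genes with at least 10 UMIs expected in the smaller group were compared, and a ratio of 2-fold was counted. Intervals are at the 95% level, and 3 UMIs were the limit for a count of 0. Depth was 586 to 5705 UMIs per retained cell in TKO1 and 644 to 12908 in TKO2. Clusters were made in Seurat 5.3.0 (R 4.3.3) with 1000 variable genes, 10 principal components and a resolution of 0.8. Clusters were named only with 3 or more markers of a type raised 4-fold over the remaining cells (neuroendocrine: 2-fold over macrophage-like cells). No doublet caller was run, and an alternative without the 5% of cells with the most UMIs stands in for it. Cells were thinned to 1000 UMIs with seed 1. Other steps used Python 3.11.15, numpy 2.4.6, scipy 1.17.1, pandas 2.3.3 and matplotlib 3.10.9, and TMM factors came from edgeR 4.0.16, with no test since each tumor has 1 library. The ratio, thinning and ordering steps were tested on simulated data.

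The genes named are the 10 genes, *Mycl*, the related lists, cell type markers, genes that lead a cluster, splitting genes, deleted genes and the 10 genes most like the set in each tumor. The 10 genes and the lists were chosen with earlier results of these data known. Alternatives covered the filters on genes and cells, scaling, thinning, the fold, the *Mycl* minimum and the split of cells. The minimum of 3 expected UMIs and the removal of single clusters were added after seeing the data.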

Additional observations from a re-analysis of the deposited data

Results flagged for a closer look

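Barcodes with 500 or fewer detected genes were not used in any comparison, and they held UMIs of the 10 genes above the limit that a count of 0 allows. Summed over the 10 genes, the level was 607 CPM (551 to 667) in 1321 such barcodes of TKO1 and 903 CPM (771 to 1050) in 248 of TKO2, below the 907 and 1479 CPM of the retained cells and above the 182 and 517 CPM of the macrophage-like cells.

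*Tubb3* had ratios of opposite sign in proliferating cells of the tumors. In TKO1 it had 59.2 CPM in 287 thinned cells with an *Mki67* or *Top2a* UMI and 25.5 CPM in 2036 without (log2 ratio 1.21, 0.33 to 2.03), from 17 and 52 UMIs, with 8.52 UMIs expected in the smaller group, under the minimum of 10. In TKO2 it had 189 CPM in 556 such cells and 256 CPM in 2625 others (log2 ratio -0.44, -0.75 to -0.14). The difference between the tumors was not tested, since each has 1 library.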

How the results depend on the processing

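The median log2 ratio between tumors moved from -1.64 to -2.01 with TMM factors, -1.86 with a total without mitochondria-encoded and ribosomal protein genes, -1.96 relative to the median of all genes, -0.94 in thinned cells, where *Dcx* fell under the minimum and 4 genes stayed past 2-fold, and -2.27 without cluster 6 of TKO1, where 7 were past 2-fold. Otherwise 5 or 6 genes were past the fold. In the *Mycl* comparison, a threshold of 2 UMIs gave 1 gene at least 2-fold higher and 0 lower. A minimum of 3 expected UMIs gave a median of 1.79 and 4 genes higher, because more genes qualified, in part through their UMIs in the *Mycl*-high cells. Among TKO2 cells, the count past 2-fold between the top and bottom 25% changed from 1 to 0 at 500 UMIs, 3 at 2000 UMIs, 2 without cells holding an *Mki67* or *Top2a* UMI, 2 between the upper and lower 50% and 5 at 1.5-fold. No direction of a ratio of at least 2-fold was reversed in these settings, which do not include the comparison within cluster 6. Some smaller ratios did change sign. Without cluster 6 of TKO1 the log2 ratio between tumors went from 0.31 to -1.48 for *Nefl* and from 0.81 to -1.44 for *Nefm*. No paired analysis was possible because each tumor is 1 library. Depth limits *Dcx*, *Stmn2* and *Gap43* in TKO1 and all genes with under 10 expected UMIs in the 87 *Mycl*-high cells.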
